A study of Homo sapiens with 4 samples.

Results

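Of 16327 protein-coding genes in a table of 36525 genes, 22 were near silent in control LM2 breast cancer cells and expressed after knockdown of hnRNPM. A gene was taken as switched on when it had under 0.3 RPKM in both control libraries and at least 1 RPKM in both knockdown libraries. RPKM is a read number divided by the length of the transcript and by the read total. In all, 25 protein-coding genes met these bounds. CALCR, MYL1 and COL1A2 were left out by name, and replication-dependent histone genes were also to be left out, although none of the 25 was a histone gene. The 22 genes were chosen by their RPKM values in all 4 libraries, so their levels are given as a description and carry no test.

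LM2 cells depleted of hnRNPM were compared with control LM2 cells, with 2 RNA-seq libraries each. LM2 is a clonal, lung-metastatic line derived from MDA-MB-231, a mesenchymal human breast cancer line, so all 4 libraries come from the same clone. The treatment label and the design text name an siRNA, whereas the growth protocol names shRNA-expressing cells, and cells were collected 48 h after plating. What the control cells received is not specified in the labels. Total RNA was extracted, and no label says whether the libraries are separate cultures, so p-values measure a spread that may be technical.

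hnRNPM is a nuclear RNA-binding protein that regulates alternative splicing of pre-mRNA. Genes that a cell lineage does not use are commonly kept silent by the absence of their activators, by DNA methylation at CpG-rich promoters, by Polycomb complexes that modify histone H3, or by heterochromatin and histone deacetylase corepressors. Many such genes are restricted to particular tissues, and their promoters often lack CpG islands and carry a TATA box. In a bulk library, transcription in a few cells and weak transcription in all cells give the same low value, and these cannot be told apart here.

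HNRNPM itself had 11.5 and 12.95 RPKM in the knockdown libraries, against 88.6 and 102 RPKM in the control libraries. The RPKM steps showed that both libraries of a group had been divided by the same read total, 29.7 M reads for the knockdown and 41.9 M reads for the control. The second library of each group therefore read higher for most genes, with a median of 1.11 times the first in the knockdown and 1.16 times in the control among protein-coding genes at 1 RPKM or more in all 4 libraries. Reads assigned to genes came to 16.5 and 18.3 M reads in the knockdown libraries and 23.0 and 26.6 M reads in the control libraries. The 8 markers of MDA-MB-231 derivatives were all expressed: VIM, the mesenchymal filament vimentin, had 562 and 631 RPKM after knockdown and 648 and 760 RPKM in the control.

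The 22 genes came from a large silent background. Of 5330 protein-coding genes below 0.3 RPKM in both control libraries, 0.469% met both knockdown bounds, the 25 genes above. With the groups exchanged, 13 of 5425 genes below 0.3 RPKM in both knockdown libraries reached 1 RPKM in both control libraries, or 0.24%. At lower bounds the order was reversed. Among the genes near silent in the control, 177 reached 0.3 RPKM in both knockdown libraries, and 248 of the genes near silent after knockdown had reached it in both control libraries. At 2 RPKM the counts were 9 genes switched on and 0 switched off. The difference between these counts was not tested.

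The 22 genes reached modest levels. Their mean knockdown RPKM had a median of 1.76 and ran between 1.06 and 4.86, whereas their mean control RPKM had a median of 0.136 and ran between 0.0232 and 0.289. The ratio of the knockdown mean to the control mean had a median of 13.5 and ran between 4.16 and 85.1. It was at least 10 in 16 genes and at least 20 in 9. None of the 22 exceeded 5.81 RPKM, the median of the 9006 protein-coding genes at 1 RPKM or more in both knockdown libraries, and the highest, DIO2, stood at percentile 43.6 of them. Low values still rested on many reads: the 22 genes had a median of 518.5 reads over both knockdown libraries and 31 over both control libraries. Each gene had at least 2 reads in every control library, so all 22 were detected in control cells.

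**Figure D1:**
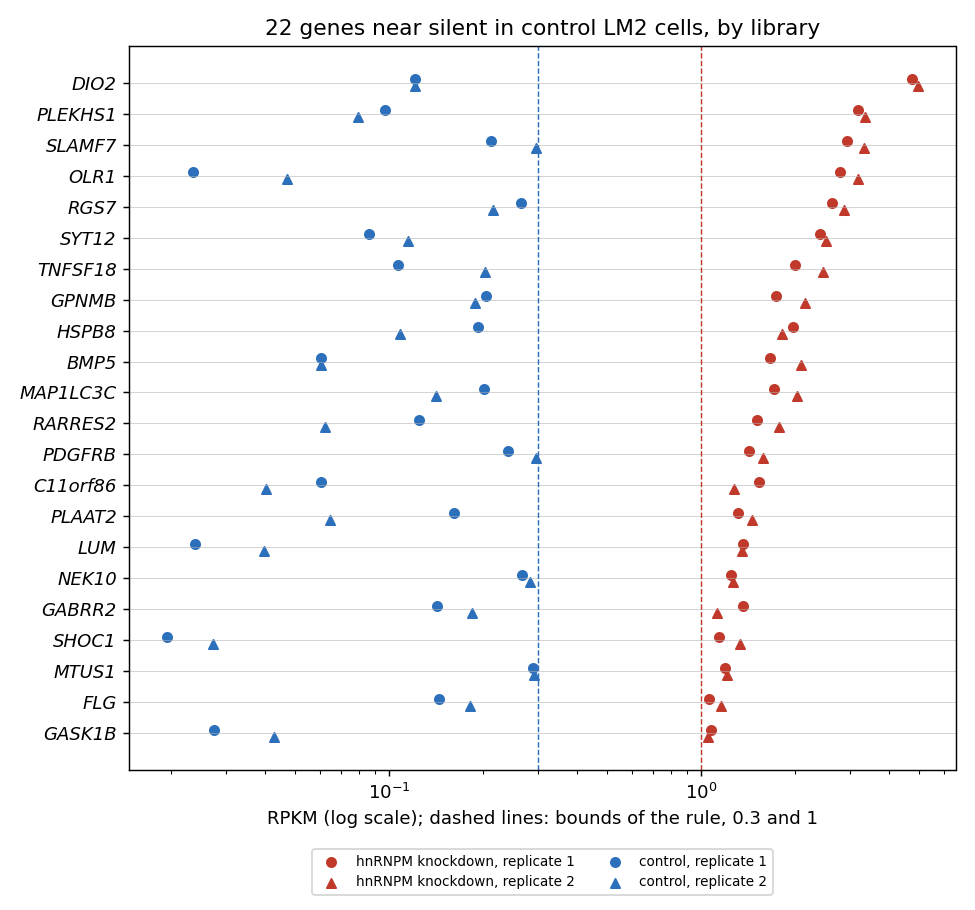
RPKM (log scale) of the 22 genes in each knockdown library (red) and each control library (blue), ordered by mean knockdown RPKM, with circles for replicate 1 and triangles for replicate 2. Dashed lines mark the bounds of 0.3 and 1 RPKM that chose the genes, so the gap between the groups is set by the choice; knockdown means run between 1.06 and 4.86 RPKM, and control means between 0.0232 and 0.289 RPKM.

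**Figure D2:**
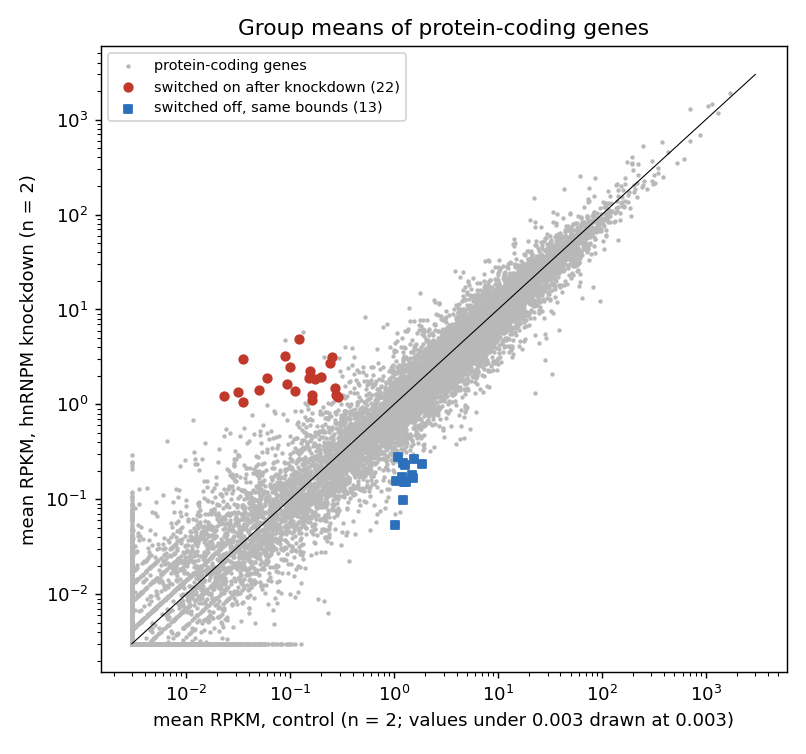
Mean RPKM of each protein-coding gene after knockdown (vertical axis, log scale) against its mean in the control (horizontal axis, log scale), 2 libraries each; values under 0.003 are drawn at 0.003 and the line marks equal means. The 22 genes switched on (red circles) lie above the line and the 13 genes that met the same bounds in the other direction (blue squares) below it.

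The ligands among the 22 were BMP5, TNFSF18 and RARRES2. BMP5 codes for a bone morphogenetic protein, a ligand of the TGF-β superfamily that signals through SMAD proteins. It had 1.66 and 2.10 RPKM after knockdown, from 195 and 246 reads, against 0.0604 RPKM and 10 reads in each control library. The ratio was 31.1, with an exact 95% interval of 19.9 to 51.5, an interval that covers counting error only here and below. TNFSF18 codes for GITR ligand, a membrane-bound TNF superfamily member that costimulates T cells. Its level was 1.998 and 2.47 RPKM in the knockdown libraries, against 0.107 and 0.202 RPKM in the control libraries, a ratio of 14.5. RARRES2 codes for chemerin, a chemoattractant and adipokine first described as a retinoid-responsive gene. It had 1.51 and 1.77 RPKM after knockdown, against 0.124 and 0.0622 RPKM in the control, a ratio of 17.6 that became 26.4 without control replicate 1.

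Relatives of these ligands had no common direction. The paralog groups described here were drawn by gene symbol after the values were known. Of the 6 other bone morphogenetic protein genes in the table, 4 were under 0.3 RPKM in all 4 libraries, whereas BMP4 had 83.5 and 91.1 RPKM after knockdown and 18.8 and 22.1 RPKM in the control (log2 fold change 2.07, limma adjusted p = 1.42e-30, higher in both knockdown libraries). Of 10 other TNF superfamily ligand genes with a TNFSF symbol, 5 were near silent throughout, and ligand genes with other symbols, such as FASLG, were not counted. TNFSF9, the ligand of the costimulatory receptor 4-1BB, had 17.6 and 18.2 RPKM after knockdown and 5.13 and 5.46 RPKM in the control (1.67, adjusted p = 1.72e-19). TNFSF12, the gene of the ligand TWEAK, went the other way, at 2.28 and 2.71 RPKM after knockdown and 4.35 and 4.64 RPKM in the control (-0.74, adjusted p = 0.000212), and passed in 3 of 4 fits without 1 library (adjusted p up to 0.103).

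The matrix and structural genes were LUM and FLG. LUM codes for lumican, a small leucine-rich proteoglycan that binds collagen fibrils. It had 1.37 and 1.36 RPKM after knockdown, from 122 and 121 reads, against 0.0238 and 0.0397 RPKM in the control, from 3 and 5 reads. The ratio of 42.9 had an interval of 21.4 to 101. All 8 other small leucine-rich proteoglycan genes were near silent in all 4 libraries, among them DCN, the gene of decorin and a neighbour of LUM, at 0.00834 and 0.0125 RPKM after knockdown and listed at 0 in both control libraries. FLG codes for filaggrin, which aggregates keratin filaments in the outer epidermis. Its level was 1.06 and 1.16 RPKM in the knockdown libraries, against 0.144 and 0.182 RPKM in the control libraries, a ratio of 6.82. The 6 other fused-type S100 genes of the epidermis were near silent in all 4 libraries. The promoter window of FLG, shown because it holds a TATA element close to the start, lies at chr1:152325190-152325489 on the minus strand of GRCh38.p14, as RefSeq gives it, with 250 bases before and 50 after the start. Capitals mark CCAAT with its first letter 210 bases before the start, a match to TGANTCA 79 bases before it and TATAAA 30 bases before it:
FLG promoter: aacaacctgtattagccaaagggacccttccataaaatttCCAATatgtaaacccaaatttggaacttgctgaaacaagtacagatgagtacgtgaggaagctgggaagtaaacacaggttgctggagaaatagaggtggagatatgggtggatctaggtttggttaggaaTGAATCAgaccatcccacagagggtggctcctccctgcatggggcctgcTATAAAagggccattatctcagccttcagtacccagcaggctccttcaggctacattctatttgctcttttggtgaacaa
FLG and the antisense gene FLG-AS1 share exon positions, and since the counting is not stated to use strand, reads of such partners cannot be told apart, here and for 4 further genes below. FLG-AS1 had 0.876 and 0.973 RPKM after knockdown and 0.894 and 0.932 RPKM in the control.

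The receptors of the cell surface were OLR1, SLAMF7, PDGFRB, GPNMB and GABRR2. OLR1 codes for LOX-1, a scavenger receptor for oxidised low-density lipoprotein. It had 2.79 and 3.19 RPKM after knockdown, from 253 and 289 reads, against 0.0234 and 0.0469 RPKM in the control, from 3 and 6 reads. Its ratio of 85.1, with an interval of 44.5 to 187, was the highest of the 22, and it was 128 without control replicate 2. SLAMF7 codes for an immune receptor of plasma cells and natural killer cells. It had 2.94 and 3.32 RPKM in the knockdown libraries, against 0.213 and 0.296 RPKM in the control libraries, a ratio of 12.3. Of the 8 other SLAM family genes, 7 were near silent throughout and 3 of these were listed at 0 in all 4 libraries.

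PDGFRB codes for the platelet-derived growth factor receptor of fibroblasts, pericytes and smooth muscle. It had 1.42 and 1.58 RPKM after knockdown, against 0.240 and 0.295 RPKM in the control, a ratio of 5.61. Its paralog PDGFRA remained at or below 0.0104 RPKM in every library. GABRR2 codes for a subunit of GABA-A receptors. Its level was 1.36 and 1.12 RPKM in the knockdown libraries, against 0.142 and 0.185 RPKM in the control libraries, and its paralog GABRR1 was listed at 0 in both knockdown libraries.

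GPNMB codes for a transmembrane glycoprotein of melanosomes and lysosomes that is found in aggressive breast cancers. It had 1.74 and 2.16 RPKM after knockdown, against 0.204 and 0.188 RPKM in the control, a ratio of 9.94. Its paralog PMEL had 1.56 and 1.62 RPKM after knockdown and 2.41 and 2.88 RPKM in the control. The promoter window of GPNMB is at chr7:23246525-23246824 on the plus strand of the same RefSeq build. It is shown as a CpG-poor window with no TATAAA, and the capitals mark a match to TGANTCA with its first letter 134 bases before the start:
GPNMB promoter: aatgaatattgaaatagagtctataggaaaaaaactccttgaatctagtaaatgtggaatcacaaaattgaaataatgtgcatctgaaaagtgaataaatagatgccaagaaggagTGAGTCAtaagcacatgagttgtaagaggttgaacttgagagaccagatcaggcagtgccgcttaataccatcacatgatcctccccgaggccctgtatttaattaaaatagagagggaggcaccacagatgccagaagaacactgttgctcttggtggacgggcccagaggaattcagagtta

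Genes of signalling and membrane traffic inside the cell were RGS7, SYT12, PLEKHS1, NEK10 and MTUS1. RGS7 codes for a regulator of G protein signalling that speeds GTP hydrolysis by Gα subunits, mainly in neurons. It had 2.62 and 2.87 RPKM after knockdown, against 0.265 and 0.215 RPKM in the control, a ratio of 11.4. Of its close relatives, RGS9 had 0.802 and 0.869 RPKM after knockdown and 0.161 and 0.274 RPKM in the control. RGS6 and RGS11 were near silent throughout. RGS7 shares exon positions with ENSG00000226919 on the opposite strand, which had 0.648 and 0.472 RPKM after knockdown and 0.0835 and 0 RPKM in the control. RGS7 has 4 promoter windows, of which that at chr1:241355777-241356076 holds 2 CpG pairs and a match to TGANTCA. The highest CpG content among the 15 genes with a promoter window belonged to RGS7, and the window at chr1:241357156-241357455 on the minus strand of GRCh38.p14 (RefSeq) is shown as the contrast to the others. It holds 46 CpG pairs, with GGGCGG in capitals at 216, 148 and 117 bases and CACGTG at 55 bases before the start:
RGS7 promoter: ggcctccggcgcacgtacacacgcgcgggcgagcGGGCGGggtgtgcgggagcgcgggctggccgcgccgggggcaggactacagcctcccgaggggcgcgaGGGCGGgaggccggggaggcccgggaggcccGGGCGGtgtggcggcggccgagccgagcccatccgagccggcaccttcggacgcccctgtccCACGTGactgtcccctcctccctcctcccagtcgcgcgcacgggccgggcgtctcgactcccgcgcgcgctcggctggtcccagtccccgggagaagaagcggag

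SYT12 codes for a synaptotagmin, a family of vesicle proteins many of which sense calcium. It had 2.41 and 2.52 RPKM after knockdown, against 0.0860 and 0.115 RPKM in the control, a ratio of 24.6. Of the 15 other synaptotagmin genes, 11 were near silent in all 4 libraries and 0 reached 1 RPKM in all 4. The others, SYT1, SYT15, SYT16 and SYT17, were higher in both knockdown libraries than in either control library, without a test. SYT17, the highest of them, had 0.877 and 1.08 RPKM after knockdown, against 0.419 and 0.465 RPKM in the control. PLEKHS1 codes for a protein with a pleckstrin homology domain, a fold that often binds membrane phosphoinositides. Its level was 3.18 and 3.35 RPKM in the knockdown libraries, against 0.0972 and 0.0795 RPKM in the control libraries, and its ratio of 36.9 rested on 509 and 537 reads against 22 and 18.

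NEK10 and MTUS1 had the smallest ratios among the 22. NEK10, of the NIMA-related kinases of the cell cycle and cilia, had 1.24 and 1.26 RPKM after knockdown, against 0.266 and 0.283 RPKM in the control, a ratio of 4.56. Of the 10 other NEK genes in the table, 1 was near silent throughout and 5 were at 1 RPKM or more in all 4 libraries. MTUS1, which codes for a microtubule-associated protein described as a tumour suppressor, had 1.19 and 1.21 RPKM after knockdown, against 0.288 and 0.290 RPKM in the control, a ratio of 4.16. MTUS1 shares exon positions with PDGFRL on the opposite strand, at 1.11 and 1.04 RPKM after knockdown and 1.36 and 1.69 RPKM in the control. When each library was rescaled by its median ratio to the gene means (median-ratio scaling), MTUS1 no longer met the control bound, the single gene of the 22 to drop out.

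The enzymes, chaperones and autophagy genes were DIO2, PLAAT2, HSPB8 and MAP1LC3C. DIO2, the most highly expressed of the 22 after knockdown, codes for the type 2 deiodinase, which converts thyroxine to the active hormone T3. It had 4.75 and 4.96 RPKM after knockdown, against 0.121 RPKM in each control library, a ratio of 40.1 with an interval of 29.1 to 57.0, computed from the smaller of the 2 read numbers that its values allow. Its opposite-strand partner DIO2-AS1, with which it shares exon positions, had 0.802 and 0.739 RPKM after knockdown and was listed at 0 in both control libraries. DIO1, the gene of the type 1 enzyme, had 0.103 RPKM in each knockdown library, against 0.0209 and 0.0418 RPKM in the control. The DIO2 promoter window at chr14:80212129-80212428, minus strand of GRCh38.p14 (RefSeq), is shown because it was the single member window with the full cAMP response element palindrome. Capitals mark TGACGTCA at 96 bases and TATAAA at 31 bases before the start:
DIO2 promoter: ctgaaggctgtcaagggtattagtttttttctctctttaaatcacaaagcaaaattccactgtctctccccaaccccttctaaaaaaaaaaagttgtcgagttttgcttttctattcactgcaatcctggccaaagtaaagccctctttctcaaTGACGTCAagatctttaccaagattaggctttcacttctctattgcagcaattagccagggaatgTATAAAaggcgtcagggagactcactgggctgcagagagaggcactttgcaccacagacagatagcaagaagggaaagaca

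PLAAT2 codes for a phospholipase and acyltransferase of the family that also holds retinoid-induced PLAAT4. It had 1.32 and 1.45 RPKM after knockdown, from 29 and 32 reads, against 0.161 and 0.0643 RPKM in the control, from 5 and 2 reads. The ratio was 12.3, with an interval of 5.63 to 31.9, and 21.5 without control replicate 1. HSPB8 codes for a small heat shock protein that works with BAG3 in chaperone-assisted autophagy. Its level was 1.97 and 1.82 RPKM in the knockdown libraries, against 0.192 and 0.109 RPKM in the control libraries, a ratio of 12.6. Of the 5 other small heat shock protein genes, 4 were near silent throughout, and HSPB1 had 22.7 and 28.4 RPKM after knockdown and 15.3 and 18.4 RPKM in the control. MAP1LC3C codes for LC3C, an ATG8 protein that is attached to autophagosome membranes. It had 1.71 and 2.03 RPKM after knockdown, against 0.202 and 0.141 RPKM in the control, a ratio of 10.9. Here 4 of the 5 other ATG8 genes in the table were expressed in all 4 libraries, so MAP1LC3C joined active relatives while HSPB8 had mostly silent ones. These active relatives did not share a direction. MAP1LC3B had 6.94 and 7.45 RPKM after knockdown and 9.81 and 11.7 RPKM in the control, while GABARAPL1 had 4.74 and 4.58 against 2.22 and 2.76 RPKM.

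The remaining genes were SHOC1, GASK1B and C11orf86. SHOC1 codes for a meiotic crossover factor that is normally active in germ cells. It had 1.14 and 1.33 RPKM after knockdown, from 209 and 243 reads, against 0.0194 and 0.0271 RPKM in the control, from 5 and 7 reads, a ratio of 53.2. GASK1B codes for a Golgi-associated protein. Its level was 1.07 and 1.05 RPKM in the knockdown libraries, against 0.0274 and 0.0426 RPKM in the control libraries, a ratio of 30.4. The antisense gene GASK1B-AS1, which shares exon positions with it, had 0.323 and 0.383 RPKM after knockdown and 0.00423 RPKM in each control library. C11orf86 had 1.53 and 1.28 RPKM after knockdown, from 54 and 45 reads, against 0.0603 and 0.0402 RPKM in the control, from 3 and 2 reads, with a ratio of 28.0 and an interval of 11.6 to 88.0.

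Besides SHOC1, a list of cancer-testis genes was followed, since these germ cell genes are silent in most somatic cells. Of 40 listed genes, 32 were in the table and 29 were near silent in both control libraries. All 29 were also near silent in both knockdown libraries, and 0 were among the 22. Of all 5330 protein-coding genes near silent in the control, 5054 remained so and 0.469% met both knockdown bounds. A count of 0 in 29 therefore does not set this list apart. MAGEB2, the single listed gene high enough to test, was already expressed and had 17.5 and 19.98 RPKM after knockdown against 8.93 and 9.65 RPKM in the control (log2 fold change 0.97, limma adjusted p = 3.73e-07).

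Markers of other cell types were set beside the 22 genes because several of the 22 are known from such cells. PDGFRB and LUM belong to the list of 14 fibroblast and smooth muscle markers, 10 of which were near silent in the control and 7 in all 4 libraries. The summed level of that list was 36.3 and 40.4 RPKM after knockdown and 16.6 and 19.4 RPKM in the control, most of it COL1A1 at 27.2 and 30.3 RPKM after knockdown and 10.3 and 12.2 RPKM in the control. Of the 3 genes of the list that were tested, COL1A1 was higher, MYH11 was lower, at 0.532 and 0.629 RPKM after knockdown and 1.47 and 1.67 RPKM in the control, and TAGLN did not pass. The fibroblast genes DCN, POSTN, PDGFRA and THY1 were at or below 0.0235 RPKM in every library. Genes of the list too low to test did not share a direction. ACTA2, a smooth muscle actin gene, had 0.178 and 0.167 RPKM after knockdown, against 0.292 and 0.434 RPKM in the control. COL3A1, CNN1 and FAP had larger values in both knockdown libraries than in either control library. COL3A1, a fibrillar collagen gene, had 0.218 and 0.247 RPKM after knockdown, against 0.00700 and 0.0175 RPKM in the control. CNN1, the gene of a smooth muscle calponin, had 0.952 and 0.846 RPKM after knockdown, against 0.162 and 0.137 RPKM in the control, and FAP had 0.0289 and 0.0530 RPKM against 0.00341 RPKM in each control library.

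FLG is 1 of 12 squamous and basal markers in the table, whose sum was 27.4 and 28.0 RPKM after knockdown and 54.0 and 61.5 RPKM in the control. Most of that sum was SFN, the list's 1 tested gene, which was lower, at 25.1 and 25.3 RPKM after knockdown and 53.4 and 60.7 RPKM in the control. Without SFN the list summed to 2.30 and 2.67 RPKM after knockdown and 0.619 and 0.820 RPKM in the control. KRT17, a basal keratin gene, had 0.571 and 0.806 RPKM after knockdown, against 0.0726 and 0.114 RPKM in the control, while KRT5, KRT14, DSG3 and TP63 were near silent throughout. The other lists held 0 of the 22 genes. Of the 8 endothelial markers measured, 5 were near silent in all 4 libraries, both genes tested were lower, and the list summed to 9.09 and 10.3 RPKM after knockdown and 15.3 and 17.8 RPKM in the control. Of 15 blood cell markers 12 were near silent, with sums of 14.8 and 17.9 RPKM after knockdown and 27.9 and 31.1 RPKM in the control. The 3 others were tested and passed, 2 higher and 1 lower. The monocyte gene CD14 had 5.27 and 7.13 RPKM after knockdown, against 1.28 and 1.44 RPKM in the control (log2 fold change 1.84, limma adjusted p = 1.58e-22), and CD34, a marker of blood progenitor and endothelial cells, had 1.67 and 1.85 RPKM against 0.387 and 0.375 RPKM (1.36, adjusted p = 1.21e-09). The macrophage gene CD68 was lower, at 7.69 and 8.75 RPKM after knockdown and 26.1 and 29.1 RPKM in the control, and without it the list summed to 7.09 and 9.16 RPKM after knockdown and 1.83 and 2.09 RPKM in the control. Of 16 skeletal and heart muscle markers 14 were near silent, with sums of 27.1 and 31.6 RPKM after knockdown and 49.7 and 57.6 RPKM in the control, and the 1 gene tested was lower. The neuronal list had 12 of 16 near silent and summed to 5.78 and 6.16 RPKM after knockdown and 3.38 and 3.93 RPKM in the control, with its 1 tested gene higher. The luminal list had 4 of 12 near silent and summed to 27.3 and 30.6 RPKM after knockdown and 17.5 and 19.9 RPKM in the control, with 3 of 6 tested genes higher and 0 lower. Whether another cell type contributed to the values of the 22 genes was not tested.

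The 22 genes lay on 12 chromosomes, 5 of them on chromosome 1 and 3 each on chromosomes 11 and 12. Chromosomes 20, 21 and 22 were not analysed here. In the order of protein-coding genes of the table in GENCODE 29, SYT12 and C11orf86 were next to each other, and the other neighbours of the 22 genes were 42 genes. Of these 42, 24 were near silent in all 4 libraries, against 5054 of all 16327 protein-coding genes, a difference that was not tested. For 9 of the 22 genes both neighbours were near silent. OLR1 stood between CLEC7A and TMEM52B, SLAMF7 between CD48 and LY9, FLG between HRNR and FLG2, and LUM between EPYC and DCN, and all these neighbours were below 0.3 RPKM in every library.

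Other genes of the 22 lay beside expressed genes. Of the 42 neighbours, 16 were tested, and 6 were higher and 2 lower after knockdown, against 14.7% higher and 21.8% lower among all 13627 genes tested (limma on log2(RPKM + 0.5), adjusted p under the threshold of 0.05, mean RPKM of at least 1). Their median log2 fold change was 0.32, against -0.07 over all tested genes. UGCG, the glucosylceramide synthase gene next to SHOC1, had 70.7 and 78.8 RPKM after knockdown, against 23.9 and 27.5 RPKM in the control (log2 fold change 1.52, adjusted p = 8.81e-17). RHOD, the gene of an endosomal small GTPase next to SYT12, had 14.4 and 14.95 RPKM after knockdown, against 5.001 and 4.98 RPKM in the control (1.46, adjusted p = 3.39e-15). TNFSF4, which codes for OX40 ligand and lies next to TNFSF18, had 10.2 and 11.9 RPKM after knockdown, against 3.40 and 4.45 RPKM in the control (1.39, adjusted p = 7.72e-14). PLAAT2 lay between its paralogs PLAAT4 and PLAAT3, and PLAAT3, a phospholipase gene, had 19.1 and 21.9 RPKM after knockdown and 9.15 and 11.1 RPKM in the control (0.99, adjusted p = 2.56e-07). All 4 of these neighbours were higher in both knockdown libraries than in either control library and passed with any 1 library left out. PLAAT4 (0.53) and GNG10 (0.50) also passed, as did UBE2J1 (-0.44) and DCLRE1A (-0.56) downward, but PLAAT4 passed in 1 of 4 fits without 1 library (adjusted p up to 0.256), and GNG10, UBE2J1 and DCLRE1A in 0 of 4 (adjusted p from 0.0515 to 0.531). Without the filter on low values UGCG and RHOD alone passed, and with median-ratio scaling 11 were higher and 3 lower.

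**Figure D3:**
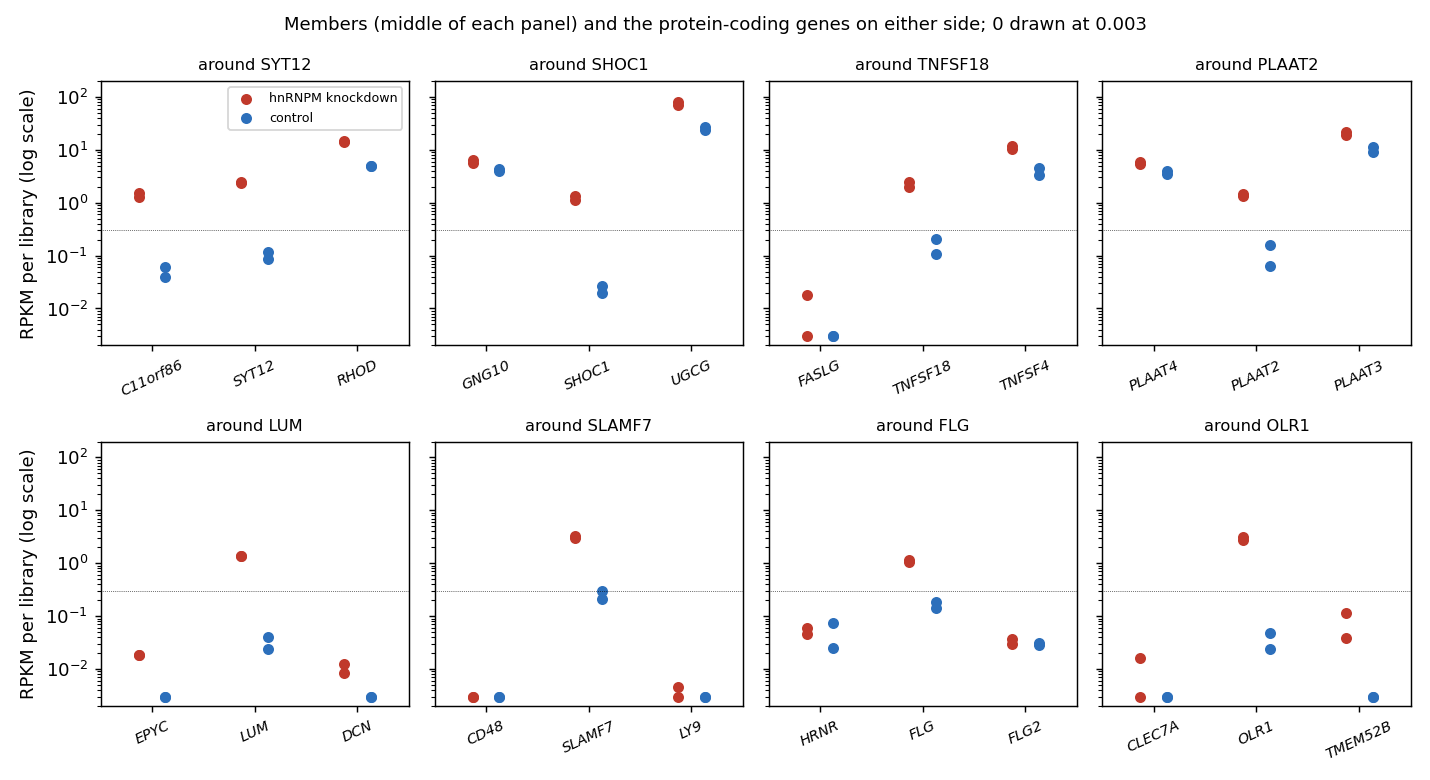
RPKM per library (log scale, 0 drawn at 0.003) of 8 of the 22 genes, each in the middle of its panel, and of the protein-coding genes on either side of it, with knockdown libraries in red on the left and control libraries in blue on the right of each position. In the upper row at least 1 neighbour of each gene was expressed and higher after knockdown, such as UGCG at 70.7 and 78.8 RPKM against 23.9 and 27.5 RPKM; in the lower row both neighbours stayed below the dotted line at 0.3 RPKM.

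RefSeq promoter windows were on hand for 15 of the 22 genes, in 23 windows of 300 bases. Beyond those printed above, windows were matched by symbol, and each gene's CpG value is the mean over its windows. CpG pairs are the sites of DNA methylation, and their count is set against that expected from the C and G content of the window. The 15 genes had a median CpG observed over expected of 0.276, against 0.451 for 3794 genes near silent in all 4 libraries and 0.839 for 7195 genes at 1 RPKM or more in all 4. A value of 0.6 or more, as in CpG islands, was found in 2 of the 15 (13.3%), RARRES2 at 0.62 and RGS7 at 0.77, against 39.1% of the genes near silent in all 4 libraries and 85.5% of the expressed genes. A single window of NEK10 also reached 0.66, though the mean of its 2 windows was 0.40. FLG was lowest at 0.0644, with 1 CpG pair in the 300 bases printed. GC content had a median of 49.3% in the 15 genes, 58.3% in the near silent genes and 65.0% in the expressed genes. The 11 of 13 switched-off genes with a window had a median CpG observed over expected of 0.489. No test was made of these differences, since the 15 genes are a small list chosen with results known.

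**Figure D4:**
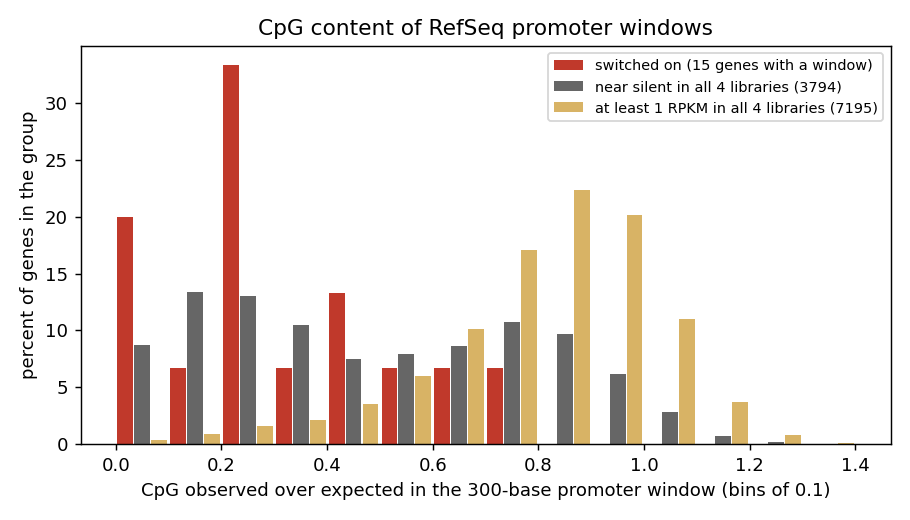
Percent of genes (vertical axis) by CpG observed over expected in 300-base RefSeq promoter windows, in bins of 0.1 (horizontal axis), for the 15 switched-on genes with a window (red), 3794 genes near silent in all 4 libraries (grey) and 7195 genes at 1 RPKM or more in all 4 (ochre). The medians are 0.276, 0.451 and 0.839, and 2 of the 15 genes reach 0.6 as the mean over their windows.

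Motifs were searched on both strands of these windows, and a gene was counted when any of its windows held the letters. TATAAA, the core of the TATA box, was found in 7 of the 15 genes (46.7%), namely FLG, PLEKHS1, BMP5, DIO2, GASK1B, GABRR2 and SHOC1, against 17.3% of the genes near silent in all 4 libraries, 7.56% of the expressed genes and 10.9% of all 12959 protein-coding genes with a window. In FLG and DIO2 it stood 30 and 31 bases before the start, where TATA boxes are usually found, and in the other 5 it lay elsewhere. TGANTCA, the core of AP-1 sites, was found in 4 genes (26.7%), FLG, DIO2, GPNMB and RGS7, against 9.94% of the near silent genes and 7.92% of all genes. TGACGTCA was found in DIO2 alone, against 1.63% of the near silent genes and 3.19% of all genes. The Sp1 core GGGCGG was found in 5 of the 15 (33.3%), in 48.5% of the near silent genes and in 68.9% of all genes. CCAAT was found in 7 (46.7%), in 40.7% of the near silent genes and in 42.9% of all genes. CACGTG, an E-box, was found in 2 (13.3%), against 8.04% of the near silent genes and 11.3% of all genes. The 15 genes had 1.53 windows each on average and all genes 1.44, so slightly more bases were searched per gene in the 15. A match of letters does not show that a factor binds there, and expression here was measured at the RNA level only.

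Most listed genes of promoter silencing passed in neither direction without rescaling. Over 3 lists of silencing genes, 76 were tested, of which 7 were higher, 14 lower and 55 passed in neither direction. The lists also hold genes whose products act against silencing, namely the TET genes and the histone demethylase genes KDM6A and KDM6B. Over all tested genes 14.7% were higher and 21.8% lower. The log2 fold change had a median of -0.06 in the lists and -0.07 over all tested genes. With median-ratio scaling 29 of the list genes were higher and 25 lower, against 4192 higher and 4122 lower over all tested genes, so both the share called and the balance depended on the scaling; without the filter on low values 0 were higher and 3 lower.

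Of the DNA methylation machinery 11 genes were tested, with 0 higher and 3 lower. MBD3, which codes for a subunit of a nucleosome remodelling and deacetylase complex, had a log2 fold change of -0.53, and the maintenance methyltransferase gene DNMT1 one of -0.52. Both passed limma with all libraries. Without 1 library the log2 fold change ran between -0.67 and -0.39 for MBD3 and between -0.62 and -0.42 for DNMT1. With median-ratio scaling both passed (limma adjusted p = 0.00157 for MBD3 and 0.000405 for DNMT1). Without the filter on low values neither passed (adjusted p = 0.141 and 0.112).

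Of 27 genes of the Polycomb list tested, 4 were higher and 6 lower, and 1 of the 4 codes for a demethylase that removes the Polycomb mark. CBX2, a chromodomain subunit of Polycomb complex 1, had 2.53 and 2.65 RPKM after knockdown, against 6.46 and 7.29 RPKM in the control (log2 fold change -1.25, limma adjusted p = 3.27e-11). CBX8, another such subunit, fell too (-0.76, adjusted p = 0.00016), whereas RYBP, a subunit of variant complexes, was higher at 15.5 and 16.9 RPKM after knockdown against 7.34 and 8.35 RPKM in the control (1.00, adjusted p = 1.58e-07). EZH2, the histone methyltransferase, had 8.57 and 9.22 RPKM after knockdown, against 13.5 and 15.8 RPKM in the control (-0.69, adjusted p = 0.000529), and passed in 1 of 4 fits without 1 library (adjusted p up to 0.155).

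Of 38 heterochromatin and corepressor genes tested, 3 were higher and 5 lower. LBR, the lamin B receptor that tethers heterochromatin to the nuclear envelope, had 4.23 and 4.68 RPKM after knockdown, against 23.2 and 26.9 RPKM in the control (log2 fold change -2.36, limma adjusted p = 1.31e-38). The histone deacetylase genes HDAC5 (0.80) and HDAC9 (0.66) and the chromatin remodeller gene ATRX (0.53) were higher. HDAC4, a further histone deacetylase gene of the list, was too low to test and went the other way. It had 0.0612 and 0.0784 RPKM after knockdown, against 0.952 and 1.09 RPKM in the control. HDAC9 passed in 2 and ATRX in 0 of the 4 fits without 1 library (adjusted p up to 0.127 and 0.307). Without the filter on low values HNRNPM, BMP4, TNFSF9, UGCG, RHOD, LBR, CBX2, CD34 and CD68 still passed, and the other genes named here as called outside the 22 did not (adjusted p from 0.0501 to 0.171). The relation of these genes to the 22 was not tested.

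The bounds cut through a continuous range of values. Just inside the control bound lay MTUS1, PDGFRB and SLAMF7, given above, and just outside lay ATOH8, DAAM2 and CLDN1. ATOH8 had 2.91 and 3.26 RPKM after knockdown, against 0.271 and 0.326 RPKM in the control. DAAM2 had 1.93 and 2.01 RPKM in the knockdown libraries, against 0.302 and 0.331 RPKM in the control libraries, and CLDN1 1.49 and 1.399 against 0.339 and 0.222 RPKM. Just inside the knockdown bound were GASK1B, FLG and GABRR2, and just outside were CAV3, CDH2 and WNT2B. CAV3, the caveolin gene of muscle, had 0.983 and 1.09 RPKM after knockdown, against 0.110 and 0.171 RPKM in the control. CDH2, the gene of N-cadherin, had 0.926 and 1.04 RPKM in the knockdown libraries, against 0.0627 and 0.0579 RPKM in the control libraries, and WNT2B had 0.913 and 1.14 against 0.198 and 0.264 RPKM. Genes of other types met the same bounds in 15 cases, among them DAAM2-AS1, an antisense gene at the DAAM2 locus, with 1.93 and 2.54 RPKM after knockdown and 0.287 and 0.108 RPKM in the control.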

How the data were processed

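The deposited table holds RPKM values per gene, made by the authors. Per the submitters' processing notes, Bowtie 0.12.7 and hg19 were used; the annotation, the counting program and strand use were not given in the sources used here. Genes were named and typed with GENCODE 29 (32308 of 36525 matched), used also for order and exon overlaps. Its exon lengths gave the read totals, the reads assigned to genes and the chi-square below. They can differ from the lengths behind the RPKM values: RGS7 had 2575 bases in GENCODE 29 and 3328 bases as recovered from its RPKM steps. The 22 genes and every list were chosen with earlier results of these data known. Whole reads were recovered from the RPKM steps of each gene within a tolerance of 0.002 reads, and the ratio intervals are exact (Clopper-Pearson, 95%, scipy 1.17.1). Mean chi-square per gene between libraries was 1.31 within the knockdown and 1.33 within the control. Because it scales with the assumed lengths, it cannot decide whether the spread exceeds sampling noise, and all 4 libraries were kept apart.

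Calls across the table used limma 3.58.1 in R 4.3.3 on log2(RPKM + 0.5), for genes whose mean RPKM reached 1, a trended prior and Benjamini-Hochberg adjustment over all 13627 genes at 0.05. Fold changes on that scale understate low genes, and its small p-values rest on a spread shared across genes. In the main fit and fits without 1 library, that spread also holds the depth difference between libraries that shared 1 read total. Calls lost when 1 library was left out may therefore depend on depth. Of the 22 genes, 10 passed the filter and 12 did not; those that passed did so through the group that chose them. All 22 genes are named; among others, HNRNPM, direct neighbours, the genes nearest each bound and up to 4 genes per silencing list with the smallest p were named. A further gene of these lists is not reported here. COL1A1, VIM, HDAC4, relatives of the 22 genes, the marker genes given and the genes acting against silencing were named after their values were seen. Alternatives were other bounds, pseudocounts, filters and scaling, the replicate number as a block, and each library left out.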

Additional observations from a re-analysis of the deposited data

How the results depend on the processing

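The count of 22 switched-on genes became 7 with a control bound of 0.1 RPKM, 47 with 0.5, 75 with a knockdown bound of 0.5, 6 with 2, and 37 with all gene types, and lay between 22 and 29 with 1 library left out. With group means it was 28, and with median-ratio scaling 23, of which 21 were shared. The 13 switched-off genes became 1 and 64 with low bounds of 0.1 and 0.5, 84 and 0 with high bounds of 0.5 and 2, and 25 with all gene types; they were 9 with median-ratio scaling and between 13 and 21 with 1 library left out, the highest without knockdown replicate 2. The rule asks for all 4 libraries, so leaving 1 out or using group means can only add genes to either count. Of 110 ratios of the 22 genes under alternatives 3 moved beyond their spread. The bounds that chose the genes left no room for a reversal. The spread came from the same 2 libraries a group, so leaving 1 out could seldom exceed it. The largest shift was 1.75 times, for PLAAT2 without control replicate 1.

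Calls over the table, 2000 higher and 2964 lower, became 262 and 255 without a filter, 1047 and 1321 with a filter at 5 RPKM, and 4192 and 4122 with median-ratio scaling, which shifted the overall median by 0.07 on the log2 scale. With 1 library left out they lay between 759 and 1158 higher and between 1057 and 2007 lower. The silencing lists, 7 higher and 14 lower, became 0 and 3 without a filter, 2 and 11 with a filter at 5 RPKM, and 29 and 25 with median-ratio scaling, and lay between 3 and 6 higher and between 4 and 8 lower with 1 library left out. The counts of neighbours under these settings were added after seeing the data. The cause of these changes was not tested.

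The replicate numbers are not stated to pair the libraries. Deviations of same-numbered libraries correlated at 0.03 across genes. This value cannot decide whether they are paired, since a shift common to all genes drops out of it and counting noise lowers it. The replicate block gave 3109 higher and 4318 lower over the table, 12 and 24 in the silencing lists, and 10 and 3 among neighbours.

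Of 280 fold changes of other named genes under alternatives, 227 kept their call, 53 no longer passed and 0 reversed. With 2 libraries a group the spread is poorly known, and 4 of the 22 genes had under 10 control reads, which limits their ratios.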
